A study of Mus musculus with 5 samples.

Results

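Transforming growth factor beta is a secreted cytokine that restrains T cell activation and supports regulatory and tissue-resident T cells in the gut. The 10 genes of its core signalling route described here were Tgfb1, the ligand made by lymphocytes, its receptors Tgfbr1, Tgfbr2 and Tgfbr3, the signal carriers Smad2, Smad3 and Smad4, the inhibitory Smad7, and the nuclear repressors Ski and Skil. They were taken by name, as the probe sets on the array whose only gene symbol is 1 of the 10, and made up 10 of 18193 genes and 24 of 34945 probe sets. In this route the ligand binds TGFBR2, which then phosphorylates TGFBR1, while TGFBR3 (betaglycan) presents ligand to the receptor pair. Activated TGFBR1 phosphorylates SMAD2 and SMAD3, which join SMAD4 and enter the nucleus, and SKI and its relative SKIL (SnoN) bind these SMADs there and hold their target genes off. SMAD7 blocks and degrades the activated receptor, and both Smad7 and Skil are themselves targets that the pathway is known to induce.

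The LP samples were CD4+ T cells sorted from the colonic lamina propria (LP) in Rag1-/- mice that had developed colitis after receiving splenic CD4+CD25-CD45RBhigh T cells of BALB/c donors. The mice were 8 to 12 weeks old at use. A supplementary table legend places the LP cells at 6 weeks after transfer, whereas the methods give 8 weeks for the recipients. Rag1-/- hosts have no T or B cells of their own but keep myeloid, stromal and epithelial cells. Cells that bound a CXCL16-Fc fusion protein, the ligand of the chemokine receptor CXCR6, formed the CXCR6+ group (labelled CXCR6 Hi, n = 2 arrays), and cells that did not formed the CXCR6- group (labelled CXCR6 Lo, n = 2). The third group was CD45RBhigh CD4+ naive T cells (n = 1 array), which were not transferred and which the methods place in BALB/c spleen, although the array's labels name both spleen and LP of healthy mice. The number of mice behind an array is not given in the sources used here, so p-values measure only the spread between arrays. With 1 naive array, that spread comes from the CXCR6+ and CXCR6- replicates alone.

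Values are signals on a linear scale on which the median of all probe sets of an array is 1, and differences are given as log2 differences. A gene with several probe sets is represented by the brightest one on average, its main probe set. The LP arrays resembled each other (Spearman's rho across probe sets 0.951 to 0.957) more than the naive array (0.821 to 0.826). Over all genes the median difference of LP from naive T cells was -0.14, and +0.08 after quantile normalization, so that small differences have to be read against these values. The naive array differed from all 4 LP arrays in more than cell state. The ratio of 3′ to 5′ Gapdh signal was 2.81 to 6.96 in LP samples and 1.51 in the naive sample. The female-specific Xist had signals of 181 to 215 and 0.864, the Y-linked Eif2s3y had 1.59 to 3.41 and 53.5, and a spike-in probe set (DapX-3) had 64.6 to 102 and 0.194. Sex, tissue, spike-in and transfer cannot be told apart from LP origin in any comparison with the naive array.

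Of the 10 genes, only Skil and Tgfbr2 passed the test between LP and naive T cells, both higher in LP cells. They were 2.40-fold (Skil) and 2.11-fold (Tgfbr2) above the naive signal. With limma 0 were lower past the threshold (at an unadjusted p under 0.05 there were 2, Smad3 and Smad7, beside 26.5% of all genes, and 4 of the 10 in either direction, beside 48.4%), although Smad7, Smad3 and Tgfb1 had signals below the naive one on all 4 LP arrays, with log2 differences of -1.0, -1.03 and -1.35. Tgfbr1, Tgfbr3, Smad2, Smad4 and Ski did not pass either. Over all genes, 33.9% passed in this comparison (15.1% higher and 18.8% lower), so 2 of 10 lies below the share of all genes that passed. The median difference of the 10 genes was -0.42. On the deposited scale, 3 genes (Tgfbr2, Smad4 and Skil) had all 4 LP arrays above the naive array, as did 35.0% of all genes, and 5 had all 4 below (Tgfb1, Tgfbr3, Smad2, Smad3 and Smad7), as did 40.9%. A fall in such a bulk signal cannot tell fewer cells of a type from less RNA per cell.

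**Figure D1:**
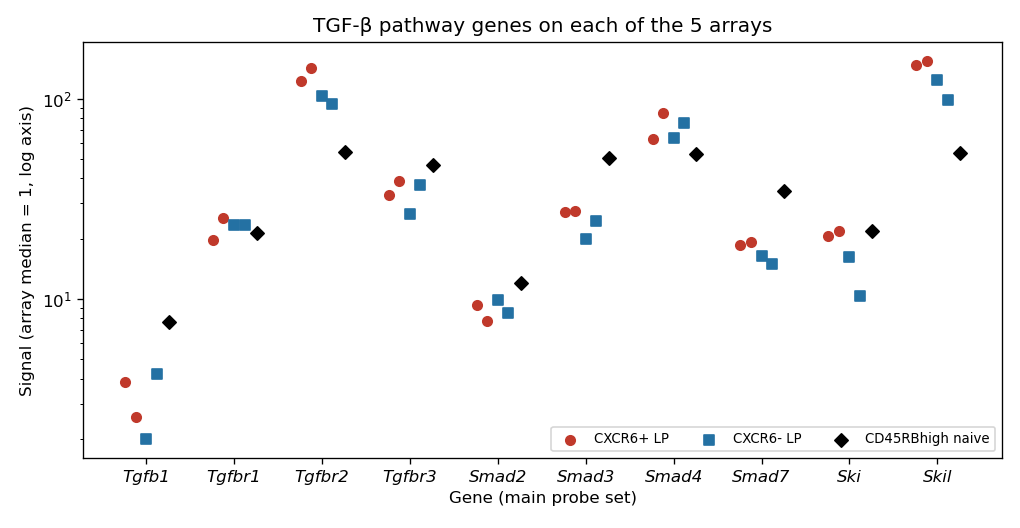
Signal of the main probe set of each gene on each of 2 CXCR6+, 2 CXCR6- and 1 naive array (log axis, array median = 1, 1 point an array). The LP points of Tgfbr2 and Skil lie above the naive point and those of Tgfb1, Smad3 and Smad7 below it, and Tgfbr1 has LP and naive points together.

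Tgfb1 encodes the ligand TGF-beta 1. Its main probe set (1420653_at) read 3.86 and 2.57 in CXCR6+ cells, 2.00 and 4.25 in CXCR6- cells and 7.72 in naive cells. Every LP array was below the naive array, but the 2 CXCR6- replicates lay 1.09 apart on the log2 scale, the widest replicate gap among the 10 main probe sets. The difference of -1.35 (SE 0.56) did not pass (adjusted p = 0.145). The second probe set (1445360_at) went the other way, with 3.88, 2.86, 2.10 and 1.84 in LP cells against 0.985, a difference of 1.38 (SE 0.32, adjusted p = 0.0506). The direction of Tgfb1 between LP and naive T cells was therefore not settled by the array.

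Tgfbr2, the ligand-binding receptor, was the receptor gene that passed the test between LP and naive T cells. Signals of its main probe set (1426397_at) were 123 and 143 in CXCR6+ cells, 103 and 94.1 in CXCR6- cells and 54.1 in naive cells. All 4 LP arrays were above the naive array, and both CXCR6+ arrays were above both CXCR6- arrays. The difference was 1.08 (SE 0.26, 95% interval 0.34 to 1.81, limma adjusted p = 0.0482). A dimmer probe set (1425444_a_at) read 3.75, 3.83, 2.43 and 2.17 in the same order against 0.976, a rise of 1.60 (adjusted p = 0.0279). The third (1422019_at) had signals of at most 0.248 on all arrays and a difference of -0.19 (adjusted p = 0.803). The margin was small. Tgfbr2 did not pass with a term for replicate number (limma adjusted p = 0.0989), with the mean of its probe sets (log2 difference 0.83, 0.128), without probe sets of the _s_at and _x_at types (0.0510), or when all probe sets were adjusted together (0.0594). With any 1 of the 4 LP arrays left out, its difference was 1.02 to 1.13. Such a fit leaves 1 array in a subset, so whether a gene passes in it says little of that gene.

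The promoter of Tgfbr2 is shown because it was the receptor gene that passed, beside that of Smad3, which lies on the same chromosome and had a difference of about the same size in the other direction. Both are the 250 bases before the RefSeq start site on GRCm38.p6, minus strand, written 5′ to 3′, Tgfbr2 at chr9:116175364-116175613 and Smad3 at chr9:63757995-63758244. Capitals mark CAGAC, the core of the SMAD-binding element, which was searched on both strands (GTCTG on the other).
Tgfbr2: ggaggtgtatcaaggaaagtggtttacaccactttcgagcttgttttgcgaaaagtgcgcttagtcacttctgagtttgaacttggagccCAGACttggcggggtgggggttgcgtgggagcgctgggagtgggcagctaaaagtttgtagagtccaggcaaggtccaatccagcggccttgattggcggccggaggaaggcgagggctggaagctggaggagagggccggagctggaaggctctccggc
Smad3: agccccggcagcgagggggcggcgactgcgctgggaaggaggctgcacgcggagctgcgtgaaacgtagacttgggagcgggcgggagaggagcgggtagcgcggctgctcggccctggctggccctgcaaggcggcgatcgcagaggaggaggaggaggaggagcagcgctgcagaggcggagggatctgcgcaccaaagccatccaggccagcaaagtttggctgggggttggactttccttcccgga
The Tgfbr2 window held 1 CAGAC, whose last base lies 156 bases before the start site, and the Smad3 window held 0. A CAGAC was present in 42.2% of 32851 mouse promoters of this length. The GC-rich SMAD motif GGCGCC, which reads the same on both strands and was present in 9.59% of promoters, was in neither window. In all, promoters of 5 of the 10 genes were searched, with 6 promoters among them. Of these, GGCGCC occurred once in 1 of the 2 Tgfbr1 promoters and in that of Ski, CAGAC once in the other Tgfbr1 promoter, and neither motif in that of Tgfb1. Such matches describe the letters in the window and say nothing of SMAD binding.

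Tgfbr1, the signalling receptor, did not pass. Its main probe set (1420895_at) read 19.8 and 25.5 in CXCR6+ cells, 23.5 and 23.4 in CXCR6- cells and 21.5 in naive cells. LP and naive signals overlapped, and the difference was 0.10 (SE 0.28, 95% interval -0.70 to 0.90, adjusted p = 0.806). After quantile normalization the difference was 0.75 (SE 0.22) and did not pass either (adjusted p = 0.0842). The other 2 probe sets were dim, with LP signals of 0.147 to 0.591 against 1.78 (1420894_at, -2.26, adjusted p = 0.108) and of 0.313 to 0.640 against 0.290 (1420893_a_at, 0.80, adjusted p = 0.298). Tgfbr3, the co-receptor betaglycan, read 33.0 and 39.0 in CXCR6+ cells, 26.7 and 37.1 in CXCR6- cells and 46.7 in naive cells (1433795_at). All LP arrays were below the naive array, by a log2 difference of -0.47 (SE 0.32) that did not pass (adjusted p = 0.314). Its second probe set (1425620_at) ran from 0.035 to 0.773 in LP cells against 2.56, a difference of -3.32 with an SE of 1.34 (adjusted p = 0.144).

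Among the receptor-regulated SMADs, Smad3 had the larger difference, and neither passed. Smad3, which binds DNA itself, read 27.2 and 27.7 in CXCR6+ cells, 19.8 and 24.6 in CXCR6- cells and 50.4 in naive cells (1454960_at). The LP signals were close together and all below the naive signal, with a log2 difference of -1.03 (SE 0.27, adjusted p = 0.0571). Its other probe sets did not repeat this. One (1450472_s_at) read 0.712 to 1.12 in LP cells against 0.922, a difference of -0.04, and the other (1450471_at) read 0.131 to 0.344 against 0.101, a difference of 1.0 (adjusted p = 0.117). Smad2, which reaches DNA with the help of partners, read 9.29 and 7.74 in CXCR6+ cells, 9.88 and 8.47 in CXCR6- cells and 12.1 in naive cells (1420634_a_at). Its difference was -0.46 (SE 0.27, adjusted p = 0.268), and +0.27 after quantile normalization. The second Smad2 probe set (1442062_at) had LP signals of 1.96 to 2.76 against 2.77, a difference of -0.35 (adjusted p = 0.450).

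Smad4, the partner shared by the TGF-beta and BMP branches, depended on the probe set. The main one (1422487_at) read 62.7 and 84.6 in CXCR6+ cells, 63.3 and 75.3 in CXCR6- cells and 53.2 in naive cells. Its difference of 0.41 (SE 0.31, adjusted p = 0.360) did not pass. A second probe set (1422485_at) read 54.2, 72.1, 46.9 and 60.0 in LP cells but 4.91 in naive cells. It passed with a log2 difference of 3.55 (SE 0.34, adjusted p = 0.0156), an 11.7-fold gap. The third (1422486_a_at) read 42.5 to 69.2 against 26.9 (difference 0.87, adjusted p = 0.151). For all 3, every LP sample was above the naive sample.

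Smad7, the inhibitor of the receptor, stood at the threshold. Its main probe set (1423389_at) read 18.6 and 19.3 in CXCR6+ cells, 16.4 and 15.0 in CXCR6- cells and 34.5 in naive cells. The replicates were 0.05 and 0.13 apart on the log2 scale, and every LP array was below the naive array. The difference was -1.0 (SE 0.24, 95% interval -1.69 to -0.31, adjusted p = 0.0502). The second probe set (1443771_x_at) read 7.90, 5.87, 6.69 and 7.68 against 66.5, 9.53-fold lower, and passed (-3.25, SE 0.32, adjusted p = 0.0159). Probe sets with the suffix _x_at can hybridize to other transcripts, and no such transcript was looked for here. With the mean of both probe sets Smad7 passed as lower (-2.13, adjusted p = 0.0230). It also passed with a filter on dim genes (0.00921), with 1 added to each signal (0.00529), when signals below 1 were raised to 1 (0.0213), and with a variance trend and robust fitting (0.00381). Smad7 did not pass after quantile normalization (-0.45, limma adjusted p = 0.194) or with a term for replicate number (0.102). Nor did it without _s_at and _x_at probe sets (0.0531) or when probe sets were chosen by mean log2 signal (0.0508). Of all genes, 25.1% passed with the mean of probe sets and 62.2% with the filter. The shares were 43.4% with 1 added, 24.1% with signals raised to 1 and 45.6% with the variance trend.

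The SKI family differed between its members. Skil had the largest difference that passed among the 10 genes. Its main probe set (1452214_at) read 148 and 154 in CXCR6+ cells, 124 and 98.4 in CXCR6- cells and 53.8 in naive cells. Both subsets were above the naive array and the CXCR6+ arrays were highest, with a difference of 1.26 (SE 0.27, 95% interval 0.48 to 2.04, limma adjusted p = 0.0405). The second probe set (1422054_a_at) read 5.02, 4.85, 3.27 and 3.09 against 0.839 and passed with a larger difference (2.24, adjusted p = 0.0180). Skil also passed when all probe sets were adjusted together (adjusted p = 0.0491), but not with a term for replicate number (0.0821). With any 1 LP array left out its difference was 1.18 to 1.34, and passing was not judged by such a fit, which leaves 1 array in a subset.

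Ski, the founding repressor, read 20.6 and 21.8 in CXCR6+ cells, 16.3 and 10.4 in CXCR6- cells and 21.7 in naive cells (1429192_at). The CXCR6+ and naive signals were level and both CXCR6- signals were lower. The difference of LP from naive cells was -0.39 (SE 0.36, adjusted p = 0.444), and +0.27 after quantile normalization. Its other probe set (1426373_at) read 11.6, 8.89, 10.6 and 7.02 in LP cells against 49.4, and passed as 5.29-fold lower (-2.40, SE 0.39, adjusted p = 0.0266).

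Across the 24 probe sets, 6 passed against naive T cells, 4 higher (1 of Tgfbr2, 1 of Smad4 and both of Skil) and 2 lower (Smad7 and Ski), where 29.6% of all probe sets passed (13.1% higher and 16.5% lower). Of these 6, only that of Skil with the highest mean signal was a main probe set, and 5 were secondary ones. The probe sets of 4 genes (Tgfb1, Tgfbr1, Tgfbr2 and Smad3) had differences of both signs, and those of the other 6 genes had 1 sign. Probe sets of a gene can bind different parts or forms of its transcript, and the Gapdh 3′ to 5′ ratio, as given above, was higher in every LP sample than in the naive one. Its part in these disagreements was not tested.

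**Figure D2:**
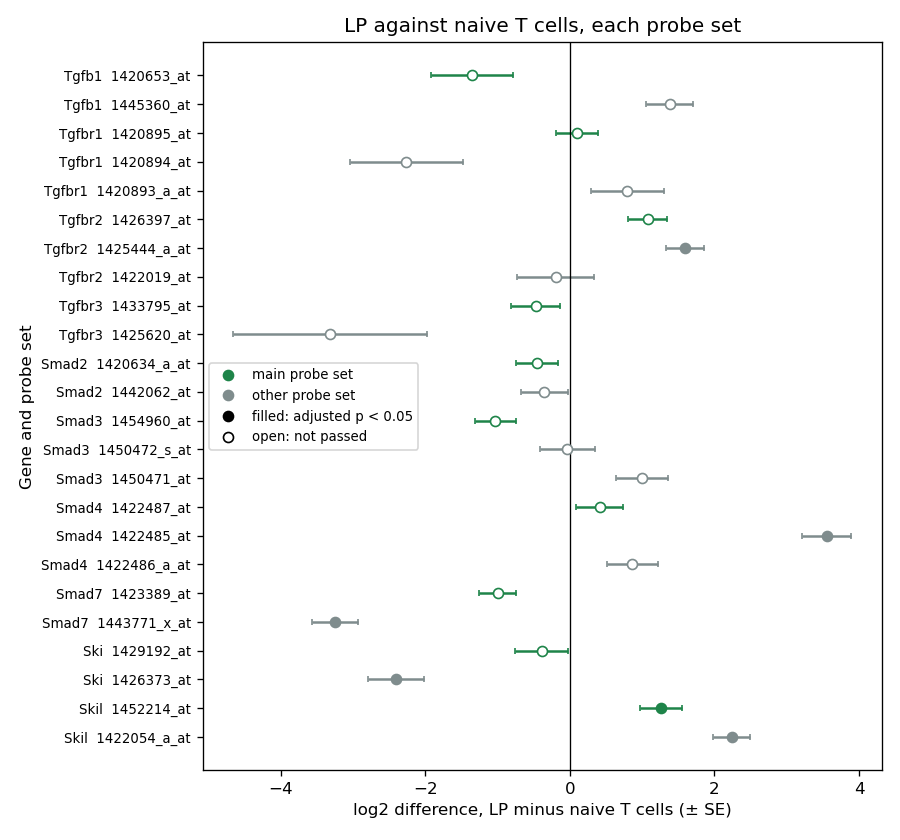
Log2 difference between LP and naive T cells (x axis, points with SE bars) for each of the 24 probe sets, green for the main probe set of a gene and grey for others, filled where the adjusted p was under 0.05. Filled points lie above 0 for Tgfbr2, Smad4 and Skil and below 0 for Smad7 and Ski, and the probe sets of Tgfb1, Tgfbr1, Tgfbr2 and Smad3 lie on both sides of 0.

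The subsets were also set against naive cells one at a time. These comparisons share the naive array. In CXCR6+ cells, Skil (1.49, SE 0.30, limma adjusted p = 0.0396) and Tgfbr2 (1.29, SE 0.28, adjusted p = 0.0450) rose against naive cells, 2 of 10 genes where 28.6% of all genes passed (13.2% higher and 15.3% lower). In CXCR6- cells the same genes had differences of 1.04 (adjusted p = 0.0769) and 0.86 (adjusted p = 0.0965), and 0 of 10 genes passed with limma, where 29.5% of all genes did (12.8% higher and 16.7% lower). At an unadjusted p under 0.05 there were 4 of the 10, beside 45.5% of all genes. The genes with lower LP signals did not pass in either subset. Smad7 was at -0.86 in CXCR6+ and -1.14 in CXCR6- cells (adjusted p = 0.0872 and 0.0505), Smad3 at -0.88 and -1.19 (0.102 and 0.0561), and Tgfb1 at -1.29 and -1.41 (0.192 and 0.166). A call in 1 subset does not show a difference between the subsets.

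The direct comparison of CXCR6+ with CXCR6- cells tests that difference. None of the 10 genes passed with limma, nor did any of all genes (0.00%), and at an unadjusted p under 0.05 there were 0 of the 10 genes against 6.55% of all genes. Both CXCR6+ arrays were above both CXCR6- arrays for 5 genes (Tgfbr2, Smad3, Smad7, Ski and Skil), and for 25.1% of all genes. Both were below for 0 genes, and for 14.3% of all. The largest difference was that of Ski, 0.71 (95% interval -0.21 to 1.62, unadjusted p = 0.0969, adjusted p = 0.774), and the 2 CXCR6- replicates of Ski lay 0.65 apart. Without CXCR6- replicate 1 the difference of Ski was 1.03, and without CXCR6- replicate 2 it was 0.38, below that of Smad3 (0.47). Skil (0.45, -0.25 to 1.15) and Tgfbr2 (0.43, -0.22 to 1.09) came next, followed by Smad3 (0.31, -0.37 to 1.00) and Smad7 (0.28, -0.34 to 0.90).

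Smaller differences were found for Tgfbr3 (0.19, -0.63 to 1.01), Tgfb1 (0.11, -1.33 to 1.55), Smad4 (0.08, -0.73 to 0.88), Tgfbr1 (-0.06, -0.78 to 0.65) and Smad2 (-0.11, -0.81 to 0.59). Among the 24 probe sets, 2 had an unadjusted p under 0.05, both dim. Tgfbr2 probe set 1425444_a_at was higher in CXCR6+ cells by 0.72 (adjusted p = 0.753) and Smad3 probe set 1450471_at was lower by a log2 difference of -0.98 (adjusted p = 0.756). For both Skil probe sets (0.45 and 0.63) the CXCR6+ arrays were above the CXCR6- arrays.

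**Figure D3:**
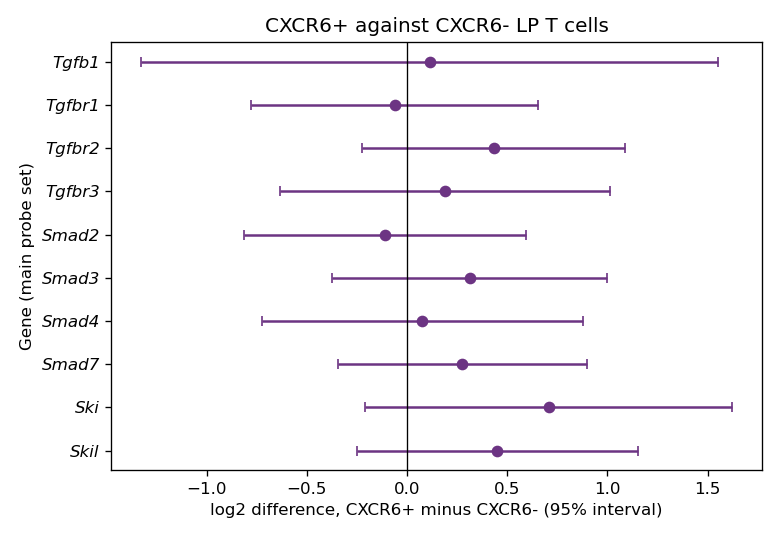
Log2 difference between CXCR6+ and CXCR6- LP T cells (x axis, 95% interval) for the main probe set of each gene, 2 arrays a group. All 10 intervals include 0, with Ski at 0.71 and Skil and Tgfbr2 at 0.45 and 0.43.

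The rest of the pathway was described with 7 lists of 76 measured genes. Of these, 21 were higher in LP than in naive T cells, 15 were lower and 40 did not pass, with a median difference of -0.21. These are shares of 27.6% and 19.7%, beside 15.1% and 18.8% of all genes. The balance turned with the processing, to 7 higher and 15 lower with signals below 1 raised to 1, 22 and 27 with 1 added, 20 and 24 with the filter on dim genes, 25 and 28 with the variance trend, and 13 and 13 with the mean of probe sets. In the same order, all genes gave 1068 higher and 3321 lower, 2817 and 5086, 2480 and 4308, 3545 and 4757, and 1988 and 2578. As reported they gave 2756 and 3414, so over all genes lower ones outnumbered higher ones in each of these. After quantile normalization all genes went the other way, with 3030 higher and 2173 lower. The split of the 76 genes under it is not given here. Fewer of the 76 passed with any 1 LP array left out, as was so over all genes, and such a fit leaves 1 array in a subset. Between the subsets 0 of 76 passed, and 8 of 76 had an unadjusted p under 0.05 with limma, beside 1191 of 18193 genes (6.55%). Against naive cells, 19 were higher and 12 lower in CXCR6+ cells, and 16 higher and 15 lower in CXCR6- cells.

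Ligands and the proteins that store or activate them gave 3 higher, 3 lower and 6 not passed of 12 (median -0.35). The latent TGF-beta binding proteins, which tether the inactive ligand to matrix, moved in both directions. Ltbp1 fell from a naive signal of 11.7 to between 0.169 and 0.587 in LP cells (-5.07, adjusted p = 0.0170), and Ltbp3 from 27.9 to between 1.75 and 3.07 (-3.56, adjusted p = 0.0178). The other Ltbp1 probe sets, both dim, did not pass (1419786_at, -1.14, adjusted p = 0.220, and 1447547_at, -1.53, 0.362). Ltbp3 did not pass with the mean of its 4 probe sets (-1.58) or without the _s_at and _x_at types (-0.92). Itgb6, an integrin subunit that activates latent ligand, and Ltbp2 rose by 6.0 and 4.29 (adjusted p = 0.0249 and 0.0412), but all their signals were under 1. The naive signal of Itgb6 was 0.005. A second Itgb6 probe set (1422983_at), also dim, went the other way without passing (-1.85, adjusted p = 0.234). With 1 added to each signal Itgb6 and Ltbp2 did not pass (0.45, adjusted p = 0.184, and 0.36, adjusted p = 0.267).

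Other receptors of the family gave 6 higher, 2 lower and 3 not passed of 11 (median 1.20), at low signals. Acvrl1 (ALK1), known from endothelium, rose from 0.045 to between 0.690 and 0.979 (4.20, adjusted p = 0.0119), all under the array median, and its second probe set did not pass (1.16, adjusted p = 0.242). Bmpr1b rose from 0.058 to between 0.382 and 0.613 (3.0, adjusted p = 0.0168). Bmpr1b did not pass with 1 added (0.47, adjusted p = 0.0749). Its other probe sets, both dim, did not pass (1437312_at, 0.60, adjusted p = 0.463, and 1443720_s_at, 0.67, 0.820). Acvr1 rose from 0.213 to between 1.25 and 1.70 (2.83, adjusted p = 0.0148) and Bmpr1a from 1.39 to between 5.54 and 7.40 (2.27, adjusted p = 0.0157). With the mean of their probe sets these 2 did not pass (1.99, adjusted p = 0.0580, and 0.57, adjusted p = 0.196).

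Of the 4 other SMADs, Smad1, which carries BMP signals, fell from 54.7 to between 2.57 and 3.74 by its main probe set (-4.15, adjusted p = 0.0120). Of its other probe sets, 1448208_at differed by -0.57 (adjusted p = 0.378) and the dim 1416081_at by 1.68 (adjusted p = 0.118), so this fall rested on 1 probe set. The inhibitory Smad6 rose by 1.29 (adjusted p = 0.0338) at signals under 1, and the other 2 did not pass. The regulators of SMADs and receptors gave 0 higher, 3 lower and 13 not passed of 16 (median -0.82). Rnf111 (Arkadia), a ubiquitin ligase known to degrade SKI, SKIL and SMAD7, fell from 82.7 to between 12.1 and 19.1 (-2.44, adjusted p = 0.0213). Usp4, a deubiquitinase of TGFBR1, fell from 49.3 to between 7.95 and 11.2 (-2.34, adjusted p = 0.0154). Its second probe set (1442319_at) differed by -1.21 and did not pass (adjusted p = 0.0946). Smurf1, a ubiquitin ligase of SMADs and receptors, fell by 1.22 on the log2 scale by its main probe set (adjusted p = 0.0413). After quantile normalization it differed by -0.51 without passing (adjusted p = 0.177). Its dimmer second probe set (1428396_at) did not repeat the fall (-0.006, adjusted p = 0.996).

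The nuclear partners gave 4 higher, 3 lower and 7 not passed of 14 (median 0.30). Tgif1, a corepressor of SMADs, rose from 3.96 to between 19.9 and 36.2 (2.73, adjusted p = 0.0141). E2f4, a partner of SMAD3 in repression, fell from 9.63 to between 1.06 and 1.89 (-2.78, adjusted p = 0.0242). The SMAD-binding repressors Zeb1 and Zeb2 rose by their main probe sets (4.29, adjusted p = 0.0119, and 2.91, adjusted p = 0.0201). The other probe sets of each pointed both ways. For Zeb1 they differed by 5.36 (1420243_at, adjusted p = 0.0362), -1.15 (1418926_at, 0.0631) and -0.93 (1443005_at, 0.0757). For Zeb2 they differed by 3.83 (1458941_at, 0.0151), 1.97 (1454200_at, 0.0256), -1.29 (1456389_at, 0.0700) and -3.66 (1434298_at, 0.0156).

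Genes known to be induced by TGF-beta in T cells or other cells gave 6 higher, 2 lower and 3 not passed of 11 (median 1.20). Itgae, the alpha E integrin chain that TGF-beta induces on intraepithelial and resident T cells, rose from 8.44 to between 106 and 134 (3.81, adjusted p = 0.0119), and its second probe set rose by 3.39. Cdkn1a, a cell cycle inhibitor, rose from 2.91 to between 31.5 and 67.7 (3.99, adjusted p = 0.0119), and its second probe set by 4.26. Foxp3, the factor of regulatory T cells, fell from 9.60 to between 0.327 and 0.913 (-4.05, adjusted p = 0.0120), and Klf10, an early TGF-beta response gene, from 50.2 to between 4.45 and 6.49 (-3.24, adjusted p = 0.0121). Of 8 T cell genes that TGF-beta is known to repress, Ifng rose (2.34, adjusted p = 0.0231), Myc fell (-1.68, adjusted p = 0.0376) and 6 did not pass (median -0.09). Between the subsets Ifng read 156 and 248 in CXCR6+ cells and 42.4 and 38.2 in CXCR6- cells, a difference of 2.29 that did not pass (limma adjusted p = 0.529).

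**Figure D4:**
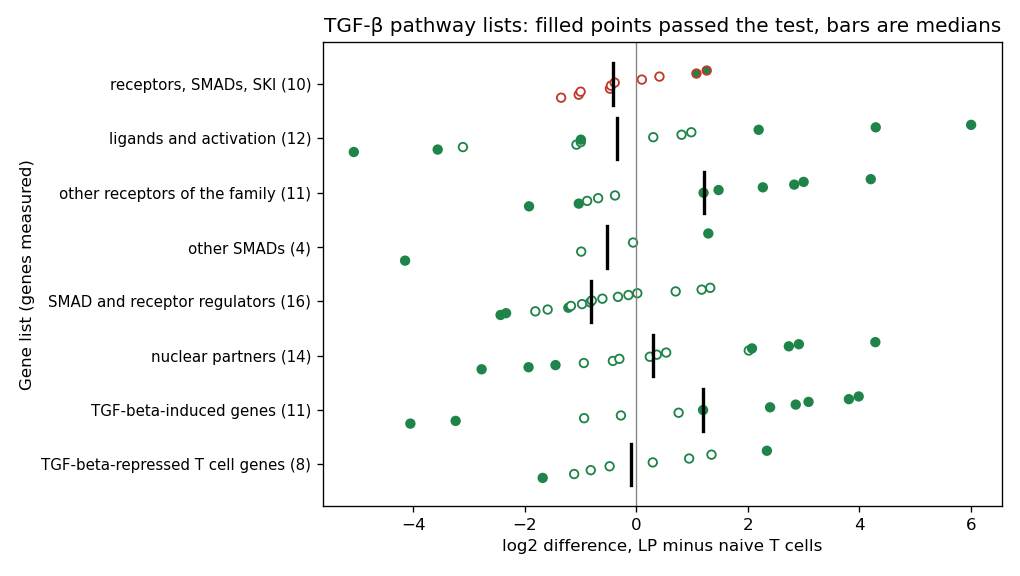
Log2 difference between LP and naive T cells for the 10 genes (top, red outline) and the 7 pathway lists (1 point a gene, filled where the adjusted p was under 0.05, black bars at list medians). Filled points lie on both sides of 0 in every pathway list except the regulators, where the 3 filled points are below 0.

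Markers of other cells moved with the comparison to naive cells. The summed signal of 7 T cell genes was 447 to 705 in LP samples and 563 in the naive sample, with 0 higher and 2 lower (Cd3d and Cd3e) past the threshold. Of these 7, all 4 LP arrays were above the naive array for 3 and below it for 3. The summed signal of 7 fibroblast and smooth muscle genes was 97.3 to 158 and 9.12, with 5 of 7 higher past the threshold and none lower. That of 7 myeloid genes was 249 to 324 and 91.5 (3 of 7 higher). The myeloid genes did not move together, as all 4 LP arrays were above the naive array for 4 of them and below it for 3. For 8 epithelial genes the sums were 30.0 to 69.6 and 11.9 (2 of 8 higher), with replicate 2 above replicate 1 in both subsets (61.2 and 32.8 in CXCR6+, 69.6 and 30.0 in CXCR6- cells). For 5 B cell genes they were 3.34 to 4.11 and 50.9 (1 higher and 4 lower). Endothelial genes summed to 5.87 to 7.24 and 11.0 (1 higher and 1 lower of 5), and platelet genes to 14.0 to 21.2 and 30.2 (2 of 4 lower). No marker list was wholly at 0. Fibroblasts and endothelium are known to express receptors and SMADs of this route, and platelets carry its ligand. The part of such cells in the differences given here was not tested.

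The genes whose signals over the 5 arrays ran closest to those of Skil, by the Euclidean distance of centred log2 signals, were Pdcd1lg2 (0.0400), Id2 (0.113) and 6820431F20Rik (0.117). Pdcd1lg2, the PD-1 ligand PD-L2, read 8.69 and 8.70 in CXCR6+ cells, 7.11 and 5.61 in CXCR6- cells and 3.09 in naive cells. Id2, an inhibitor of helix-loop-helix factors, read 227 and 256, 205 and 161, and 91.4 in the same order. Like Skil, each was highest on the CXCR6+ arrays and lowest on the naive array.

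Across 13 alternatives of the comparison with naive cells, Skil stayed between 1.18 and 1.75 and Tgfbr2 between 0.83 and 1.21. Smad3 reached -0.02 with the mean of its probe sets and Tgfb1 reached +0.01, while both passed as lower with the filter on dim genes, with 1 added and with the variance trend. Smad4 passed with the mean of its probe sets only (1.61, adjusted p = 0.0418).

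**Figure D5:**
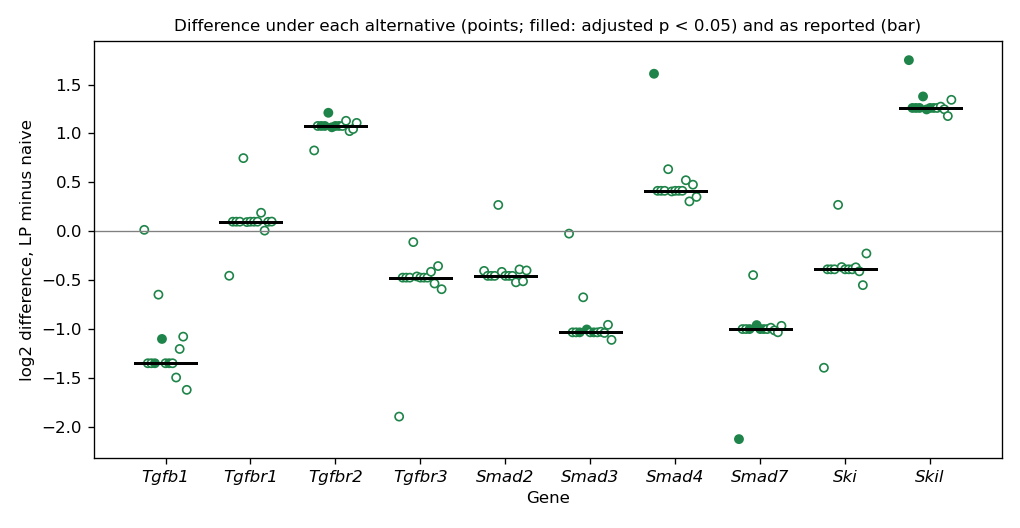
Log2 difference between LP and naive T cells for each gene as reported (black bar) and under each of 13 alternatives (points, filled where the adjusted p was under 0.05). Tgfbr2 and Skil stay above 0 and Smad7 below 0 throughout, and Tgfb1, Tgfbr1, Smad2 and Ski have a point on the other side of 0.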

How the data were processed

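Expression in sorted CD4+ T cells was measured on 5 Affymetrix mouse arrays (3′ expression design), grouped by their labels. The intensity values deposited by the authors are linear signals with a median of 1 on each array. The methods name GeneSpring 11.5 and the submitters' notes name RMA, and how background was corrected is not given in the sources used here. RNeasy kits are named differently in the methods and in the labels.

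Of 45101 probe sets, 34958 carry 1 gene symbol, 932 several and 9211 none. Leaving out 13 control probe sets, 34945 were used, of which 34741 matched RefSeq by Entrez ID. The brightest probe set by mean signal represented each of 18193 genes. Signals were log2 transformed after 2 signals of 0 were set to 0.001. With limma 3.58.1 (lmFit, eBayes; R 4.3.3), the means of 3 groups were estimated in 1 model and tested two-sided, with p-values adjusted after Benjamini and Hochberg for all genes at a threshold of 0.05. A separate fit covered all probe sets. The fit has 2 residual and 1.678 prior degrees of freedom, and gives the single naive array the spread of the LP replicates. The number of arrays limits the precision. The script was tested on simulated data.

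The 10 genes, the pathway lists and the marker lists were chosen with earlier results of these data known. Of 81 listed pathway genes 76 were measured, and the others are not reported here. Up to 4 genes a list were named, those with the largest difference among genes that passed, and the 3 genes closest to the member with the largest difference that passed. The alternatives were the choice or mean of probe sets, a filter on dim genes, quantile normalization, the added 1 or floor of 1, a variance trend, a replicate term, leaving out each LP array, and for the subsets the methods' test. Promoters are from RefSeq (GRCm38.p6), not analysed here for the other members. Figures were drawn with matplotlib 3.10.9 in Python 3.11.15.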

Additional observations from a re-analysis of the deposited data

How the results depend on the processing

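Against naive T cells, the count of the 10 genes that passed was 2. It was 1 without the _s_at and _x_at probe sets, 5 (2 higher and 3 lower) with the 40th percentile filter, with 1 added to each signal or with the variance trend, 0 with the replicate number as a block (where 62.2%, 43.4%, 45.6% and 19.3% of all genes passed, beside 33.9%), and 0 when any LP array was left out. For CXCR6+ cells (2) it was 4 with the filter, 1 added or the trend, 0 with the block and 0 with an array left out. For CXCR6- cells (0) it was 2 with the mean of probe sets, 5 with the filter, 2 after quantile normalization, 4 with 1 added, 1 with the floor and 5 with the trend. Of the 24 probe sets (6), 10 passed with the filter, 13 with 1 added, 12 with the trend and 2 with the block. The shares over all probe sets, and over all genes in each subset, are not given here for these settings. These changes are therefore not read as results about the 10 genes. Of the 76 pathway genes (36), 22 passed with the floor (7 higher and 15 lower), 22 with the block and 0 to 14 with an array left out. Over all genes, 2756 were higher and 3414 lower, and 3030 and 2173 after quantile normalization. Without a CXCR6- array 0 of all genes passed (7530 and 7545 at an unadjusted p under 0.05), without CXCR6+ replicate 1 or 2, 1769 and 1938. Between the subsets 0 of the 10 genes passed in any alternative, and the methods' t-test called 0 of them at its threshold and 0 after Benjamini-Hochberg (1283 and 1 of all genes).

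Directions turned for values that had not passed. With the mean of probe sets, LP against naive was 0.014 for Tgfb1 and -0.46 for Tgfbr1. In CXCR6+ cells it was 0.23 and -0.68. In CXCR6- cells it was -0.23 for Tgfbr1 and 0.058 for Smad3. Between the subsets it was -1.21 for Tgfbr3, 0.048 for Smad2 and -0.17 for Smad3. After quantile normalization Smad2 was 0.27 in LP, 0.13 in CXCR6+ and 0.41 in CXCR6- cells, Ski was 0.27, 0.52 and 0.020, and between the subsets Tgfbr3 was -0.033 and Smad4 -0.15. By probe set, Smad2 1442062_at was 0.19 and Smad3 1450472_s_at 0.012 after it, and the latter 0.044 with the floor. The cause was not tested. With 1 LP array left out, Tgfbr1 (-0.12 to 0.25) and Ski (-0.077 to 0.0050) changed sign in CXCR6+ against naive cells, as did, between the subsets, Tgfb1 (-0.43 to 0.66), Tgfbr1 (-0.24 to 0.12), Tgfbr3 (-0.047 to 0.43), Smad2 (-0.24 to 0.022) and Smad4 (-0.14 to 0.29), and the LP against naive values of Tgfbr2 1422019_at (-0.46 to 0.069) and Smad3 1450472_s_at (-0.16 to 0.091).

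The replicate numbers are shared by only 2 pairs (correlation of replicate differences 0.0193 over all genes and 0.317 over bright genes), and nothing in the labels says whether they pair arrays, which therefore was not settled. A random replicate block could not be estimated with these arrays and was not run. Under the floor, genes and probe sets with every signal below 1 give no value. Dim values are the least certain, with a median log2 gap between replicates of 0.591 (CXCR6+) and 0.553 (CXCR6-) for dim genes against 0.239 and 0.185 for bright ones.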
